A study of Mus musculus with 2 samples.

Results

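Mfsd2a and 8 genes of phospholipid remodelling were followed in liver RNA of wild-type mice and of mice labelled as lacking Fhl2. The 9 genes were taken from a list of names, and a gene was represented by the probe set annotated to its symbol alone with the highest mean of both arrays. Each of the 9 had 1 such probe set, called a probe below, out of 19938 named genes on the arrays. The list was selected on the difference of Mfsd2a between these same arrays, so that difference is a description and supports nothing.

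The study compared 2 pools of liver RNA, 1 from mice with a wild-type Fhl2 gene and 1 from mice labelled FHL2-/-. Each pool combined left-lobe RNA of 3 males aged 10 to 11 weeks, and both groups came from the same mixed stock, a hybrid of Black Swiss/129-SV/J. Each pool was hybridised to 1 array, so the groups hold no replicates, no difference can be tested, and the spread between mice is hidden. Fhl2, a LIM-domain cofactor, read 5.30 in the wild-type pool and 5.33 in the other on the log2 scale of the arrays. That level is below the filter described next, and the deleted exons are not named in the labels. This probe therefore does not check the genotype, and FHL2-/- stands below for what the pool was labelled.

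Glycerophospholipids are made with one set of fatty acids and then edited. In the Lands cycle a phospholipase removes an acyl chain and leaves a lysophospholipid, and an acyltransferase puts another chain, often polyunsaturated, in its place. Liver uses these steps to set the fluidity of its membranes and of the lipoproteins it secretes. Lysophospholipids also travel in plasma and enter cells through carriers, of which MFSD2A is the best known. It is a sodium-dependent symporter for lysophosphatidylcholine that supplies docosahexaenoic acid to the brain, and in liver its transcript is known to be induced by fasting. Phosphatidylcholine itself is made in liver by the CDP-choline pathway and by methylation of phosphatidylethanolamine, the reaction of PEMT.

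The windows before the transcription starts are shown for 2 genes, Mfsd2a as the gene with the large difference and Lpcat3 as the gene of the 9 with the smallest difference among the 7 past the level filter. Both come from RefSeq on mouse assembly GRCm38.p6 and cover the 250 bases before the start, written 5′ to 3′ on the strand of the gene. The window of Mfsd2a is chr4:122961189-122961438 on the minus strand, and that of Lpcat3 is chr6:124662854-124663103 on the plus strand. Capitals mark matches on either strand to 7 short motifs chosen after the values were seen, namely the TATA box TATAAA, the CCAAT box CCAAT, the GC box GGGCGG, the E-box CACGTG, the cAMP response element TGACGTCA, the nuclear receptor half-site AGGTCA and the STAT palindrome TTCNNNGAA.
Mfsd2a: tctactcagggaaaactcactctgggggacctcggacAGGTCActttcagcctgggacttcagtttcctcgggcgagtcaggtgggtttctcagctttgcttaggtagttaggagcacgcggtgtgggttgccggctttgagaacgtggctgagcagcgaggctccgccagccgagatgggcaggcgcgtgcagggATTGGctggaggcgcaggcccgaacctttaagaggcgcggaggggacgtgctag
Lpcat3: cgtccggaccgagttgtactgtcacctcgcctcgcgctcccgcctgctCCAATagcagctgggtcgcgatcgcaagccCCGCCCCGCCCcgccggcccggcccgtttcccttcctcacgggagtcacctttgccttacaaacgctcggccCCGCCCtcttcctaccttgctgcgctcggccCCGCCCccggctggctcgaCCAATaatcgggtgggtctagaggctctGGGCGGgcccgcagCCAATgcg

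In the Mfsd2a window 2 motifs were found. A nuclear receptor half-site lay 213 to 208 bases before the start, and a CCAAT box on the opposite strand lay 54 to 50 bases before it. The half-site occurred in 14.0% of 32841 RefSeq windows of this length and in 1 of the 10 windows of the 9 genes, Pemt having 2 starts. The CCAAT box occurred in 33.9% of all windows and in 6 of these 10. The Lpcat3 window held 3 CCAAT boxes and 5 GC boxes, 2 of which share 1 base. GC boxes were in 7 of the 10 windows, against 32.7% of all windows, and had no match in the window of Mfsd2a or in either window of Pemt. The TATA box had 1 match, in the Lpcat2 window (12.4% of all windows), and the STAT palindrome had 1, in a Pemt window (7.02% of all). The E-box and the cAMP response element had 0 matches in the 10 windows, against 6.02% and 1.55% of all windows. These matches describe letters in a window and say nothing of binding.

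The windows of Pemt held fewer CpG pairs than those of the other genes. The ratio of observed to expected CpG was 0.08 and 0.12 in the Pemt windows, below the median of 0.37 over all windows. In the other 8 windows it ran from 0.61 for Lpcat2 to 0.996 for Lpcat3, with 0.75 for Mfsd2a. The G + C content was 61.6% for Mfsd2a and ran from 44.8% in a Pemt window to 79.6% for Lpcat4, against a median of 52.4%.

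**Figure D1:**
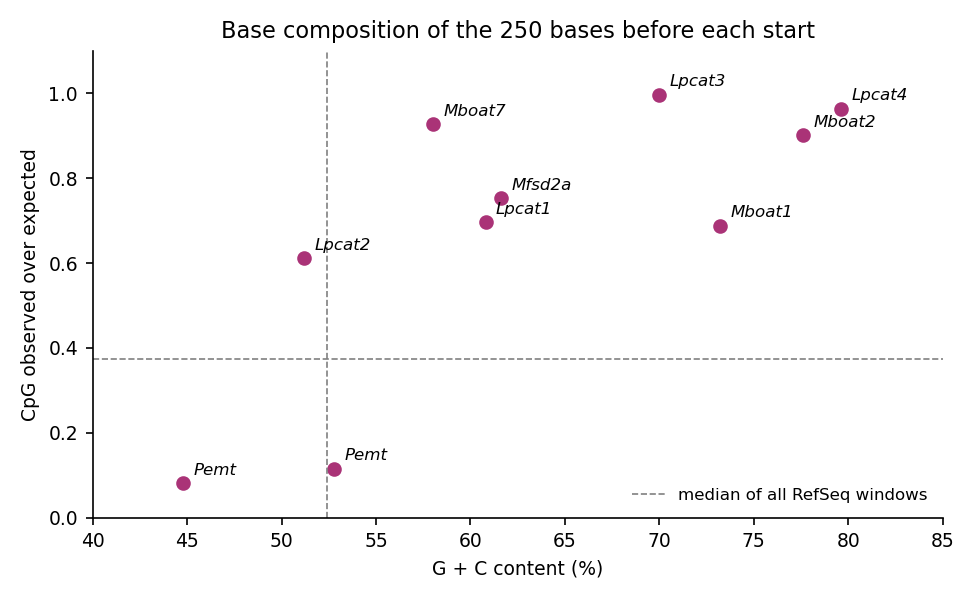
Base composition of the 250 bases before each RefSeq start of the 9 genes, with G + C content in percent on the horizontal axis and the ratio of observed to expected CpG on the vertical axis. Each point is 1 window and dashed lines are medians of all 32841 windows; both Pemt windows lie below the CpG median of 0.37 and the other 8 windows above it.

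Values are log2 probe levels, and a difference is the level in the FHL2-/- pool minus that in the wild-type pool. The level filter, a mean of 5.44 that is the 40th percentile of probes with 1 symbol, was passed by 11924 genes and by 7 of the 9. Mboat1 and Mboat2 did not pass. Over the 11924 genes the median difference was 0.04 and the middle 90% of differences ran from -0.29 to 0.32. The only repeat measurement on these arrays is that of several probes for 1 gene, whose differences had an SD of 0.14 over 660 genes. It covers probe error and neither animals nor hybridisations, and 40.3% of the 11924 genes differed by more than it. Past 1.5-fold, 74 of these genes (0.621%) were higher in the FHL2-/- pool and 40 (0.335%) were lower, so higher genes made up 64.9%, or 75.0% (90 against 30) when the medians of the arrays were made equal. Levels of different probes are not comparable with each other as amounts of RNA, so amounts are compared only between the pools. The nearness to Mfsd2a and the marker sums given below are of probe readings alone.

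Mfsd2a read 5.81 in the wild-type pool and 7.65 in the FHL2-/- pool. The difference was 1.84 on the log2 scale, or 3.58-fold, the largest positive difference of the 11924 genes. In either direction 2 of the 11924 (0.0168%) differed by at least as much, Mfsd2a and Bcl6, a transcriptional repressor that was lower, at 8.75 and 6.77. The difference of Mfsd2a was 12.9 times the SD between probes. That ratio describes size alone, as the SD comes from genes with several probes and Mfsd2a has 1 and was selected on this value. Genes of a similar level, that is, in the same level bin out of 10 (bin 4), had a middle 90% of differences from -0.30 to 0.39. Of the 9 genes, 1 (Mfsd2a) was past 1.5-fold on the higher side and 0 were as much lower, where without the level filter 0.767% and 0.667% of 19938 genes were. The selection used this contrast, so nothing is read from that count. The next gene in the order of positive differences was Cabyr at 1.74, which read 4.84 and 6.58 and so lay below the filter level in the wild-type pool.

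**Figure D2:**
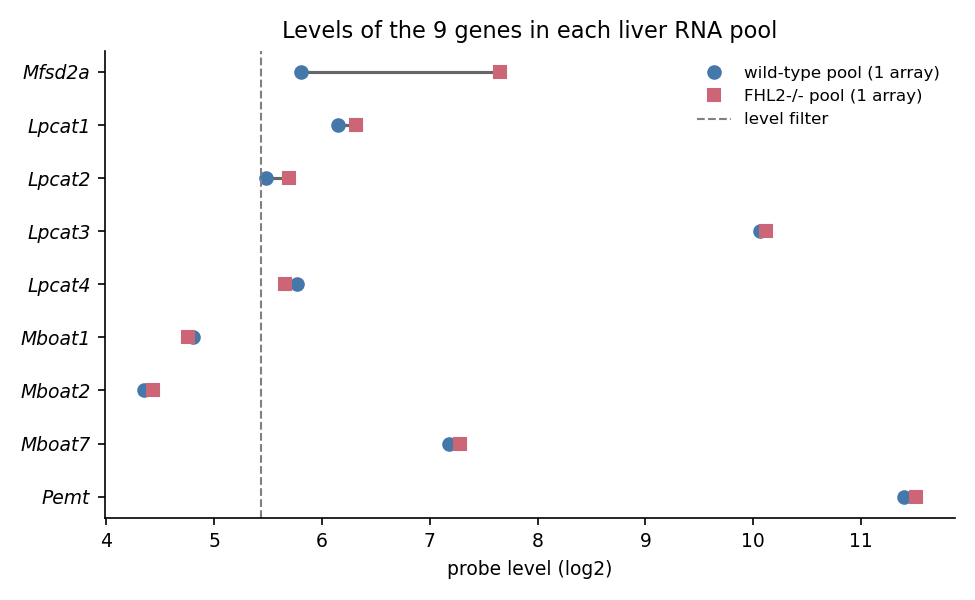
Log2 probe level of each of the 9 genes in the wild-type pool (circles) and the FHL2-/- pool (squares), 1 array each, with no error bars as there are no replicates. The Mfsd2a symbols lie 1.84 apart while those of the other 8 genes lie at most 0.21 apart, and Mboat1 and Mboat2 lie below the level filter (dashed line).

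The other 8 genes differed little between the pools. Their differences ran from -0.11 to 0.21 with a median of 0.09, and 6 were above 0 and 2 below. Only Lpcat1 and Lpcat2 of these 8 differed by more than the SD between probes, and each did so by a margin that many genes on the arrays share.

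The LPCAT genes encode acyltransferases that act on lysophosphatidylcholine and related lysolipids. Lpcat1, known for the disaturated phosphatidylcholine of lung surfactant, read 6.15 in the wild-type pool and 6.32 in the FHL2-/- pool. The difference of 0.17 is 1.12-fold, and 33.1% of the filtered genes differed by at least as much in either direction. Lpcat2, an enzyme of inflammatory cells that also makes platelet-activating factor, read 5.48 and 5.69. Its difference of 0.21, or 1.16-fold, was the largest of the 8, and 23.0% of genes differed by at least as much. Its level lay just above the filter, where the middle 90% of differences was wide, from -0.41 to 0.32.

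Lpcat3 belongs by sequence to the membrane-bound O-acyltransferases, is the main lysophosphatidylcholine acyltransferase of liver and favours linoleoyl and arachidonoyl chains. It read 10.06 in the wild-type and 10.12 in the FHL2-/- pool. The difference of 0.05, or 1.04-fold, lay near the median of all genes, and 74.7% of genes differed by at least as much. Lpcat4, which also acylates lysophosphatidylethanolamine, read 5.77 and 5.66. At -0.11 it was the lowest of the 9 differences, 1.08-fold lower in the FHL2-/- pool, and 51.5% of genes differed by at least as much.

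The MBOAT genes encode acyltransferases for other lysophospholipids. Mboat7, which returns arachidonoyl chains to phosphatidylinositol, read 7.18 in the wild-type and 7.28 in the FHL2-/- pool, a difference of 0.10 or 1.07-fold. Mboat1, which acts on lysophosphatidylethanolamine and lysophosphatidylserine, read 4.80 and 4.76. Its difference of -0.04 turned to 0.0055 when the trend of differences on level was removed, so its sign is not settled. Mboat2, which prefers oleoyl chains, read 4.35 and 4.43, a difference of 0.09. Both lay below the level filter in both pools.

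Pemt, whose enzyme methylates phosphatidylethanolamine to phosphatidylcholine almost only in liver, read 11.39 in the wild-type and 11.51 in the FHL2-/- pool. The difference of 0.12, or 1.08-fold, was below the SD between probes, and 49.7% of genes differed by at least as much. Genes of similar level had a middle 90% from -0.18 to 0.24.

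**Figure D3:**
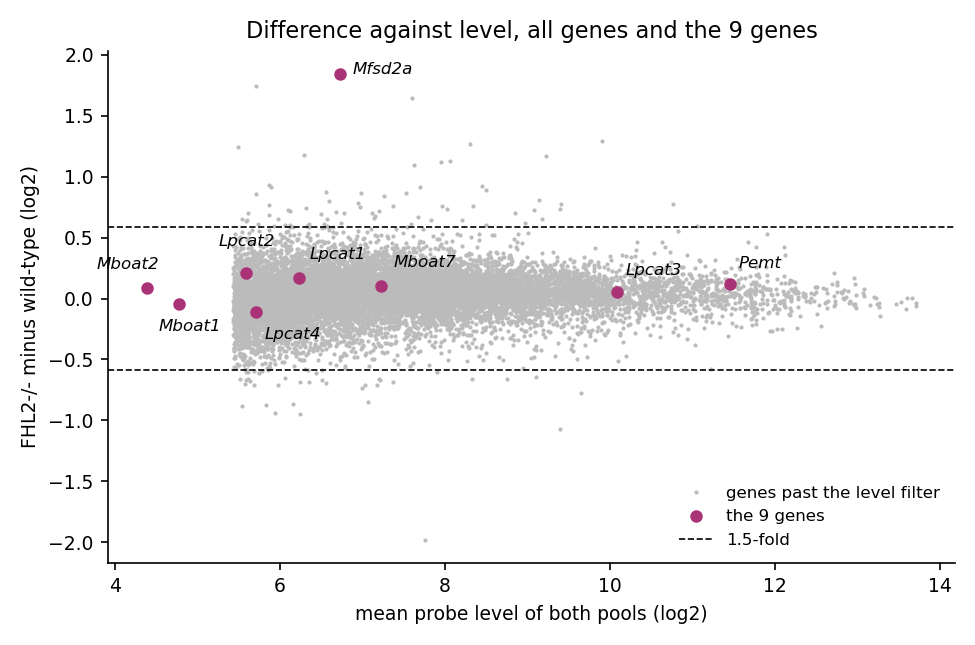
Difference in log2 level (FHL2-/- minus wild-type pool) against the mean log2 level of both pools, for 11924 genes past the level filter (grey) and the 9 genes (purple), with dashed lines at 1.5-fold. Mfsd2a lies at 1.84, above every grey point, and the other 8 genes lie between -0.11 and 0.21, inside the grey cloud or, for Mboat1 and Mboat2, left of the filter.

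The probes with readings nearest to those of the Mfsd2a probe in both pools were those of Acot4, Cyp17a1 and Meg3. Nearness is the Euclidean distance over the log2 levels of the 2 arrays, and it rests on these 2 points alone. It also carries the brightness of each probe, so it says only that these probes gave similar readings. Acot4, a peroxisomal acyl-CoA thioesterase, lay at a distance of 0.73 and read 6.12 and 6.99. Cyp17a1, a steroid hydroxylase, lay at 0.76, read 6.20 in the wild-type pool and was higher by 0.80 in the other. Meg3, an imprinted noncoding RNA, lay at 0.77 and read 5.71 and 6.89.

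Genes of phospholipid metabolism and of pathways that feed or regulate it were read from 10 lists with 133 genes, the methionine cycle, fasting and LXR lists included, of which 118 had a probe of their own and 104 passed the level filter. Among the 104 genes 3 (2.88%) were past 1.5-fold on the higher side, namely Gpcpd1 and Lipg of the phospholipase list and Angptl4 of the fasting list, where 0.621% of all filtered genes were. As much lower were 0, against 0.335% of all filtered genes. The median of the 104 differences was 0.08, against 0.04 over all genes, and 76 (73.1%) lay above 0, as did 59.5% of all genes past the filter. The lists were chosen with earlier results of these data known, so these shares are a description and nothing is read from them.

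No other carrier of lysophospholipids or phospholipids on the list was past 1.5-fold. Of these carriers 11 passed the filter, with differences from -0.25 to 0.17 and a median of 0.04. The sphingosine phosphate exporter Spns2 was at -0.01 and the lysosomal lysophospholipid carrier Spns1 at 0.10. The flippase subunit Tmem30a was lowest at -0.25, followed by the phospholipid transfer protein Pltp at -0.03. The lipid transfer proteins Stard7 and Pctp were highest at 0.17 and 0.15. Mfsd2b, the closest relative of Mfsd2a by name and an exporter of sphingosine phosphate, was at -0.03 with levels of 5.04 and 5.01, below the filter.

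The acyl chain is cut off before the LPCAT and MBOAT enzymes act. The list of phospholipases and lysophospholipases holds genes of that step and others, Gpcpd1 among them, whose enzymes cut off no acyl chain. Its 19 genes past the filter had a median of 0.07, with 15 above 0. Gpcpd1, which splits glycerophosphocholine at the end of phosphatidylcholine breakdown, read 9.03 and 9.77, a difference of 0.74 or 1.67-fold. Lipg, the endothelial lipase that cuts phospholipids of high-density lipoprotein, read 6.24 and 6.85, a difference of 0.61 or 1.53-fold. Lowest were the adipose phospholipase Plaat3 at -0.53, from 6.88 to 6.34, and the lysosomal phospholipase Pla2g15 at -0.26.

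Acyltransferases outside the LPCAT and MBOAT genes of the set had a median of 0.08 over 11 genes. Lclat1, which remodels cardiolipin and phosphatidylinositol, was highest at 0.42, followed by the glycerol phosphate acyltransferase Gpat3 at 0.30. Gpat2 was lowest at -0.26 and Gpam, the main mitochondrial form in liver, was at -0.11. Of the other MBOAT family genes only Dgat1, a triglyceride synthase, and Porcn, which acylates Wnt proteins, passed the filter, at 0.07 and 0.06. Genes of the LXR and SREBP1c list, which bear on Lpcat3 as a known LXR target, had a median of 0.01 over 10 genes, or -0.02 after removal of the trend on level. In that list the sterol exporters Abcg5 and Abcg8 were both at 0.30, the regulator Srebf1 was at -0.13 and the synthase Fasn at -0.11.

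Around Pemt, the CDP-choline and CDP-ethanolamine genes had a median of 0.03 over 9 genes, or -0.00079 after removal of the trend on level. The choline kinase Chka stood lowest at -0.51, from 8.52 to 8.01, and the choline transporter Slc44a1 was at -0.08. Pcyt1a, the rate-limiting enzyme of the CDP-choline pathway, was highest at 0.17, followed by the choline phosphotransferase Chpt1 at 0.09. Genes of the methionine cycle, which supplies the methyl groups that PEMT uses, and of choline oxidation had a median of 0.12 over 10 genes, beside 0.12 for Pemt itself. Mat1a, the S-adenosylmethionine synthetase of liver, was at 0.21 and the dimethylglycine dehydrogenase Dmgdh at 0.20, while the methionine synthase Mtr was lowest at -0.05 and Cbs, which drains homocysteine, lay at -0.0039. Genes for phosphatidylserine, phosphatidylinositol and cardiolipin had a median of 0.11 over 11 genes, from Lpin3 at -0.17 and Crls1 at -0.11 to Lpin2 at 0.20 and Ptpmt1 at 0.28. The acyl-CoA synthetases, desaturases and elongases that feed the acyltransferases had a median of 0.09 over 6 genes, from Elovl2 at -0.08 and Acsl5 at 0.02 to Elovl5 at 0.11 and Acsl4 at 0.13.

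**Figure D4:**
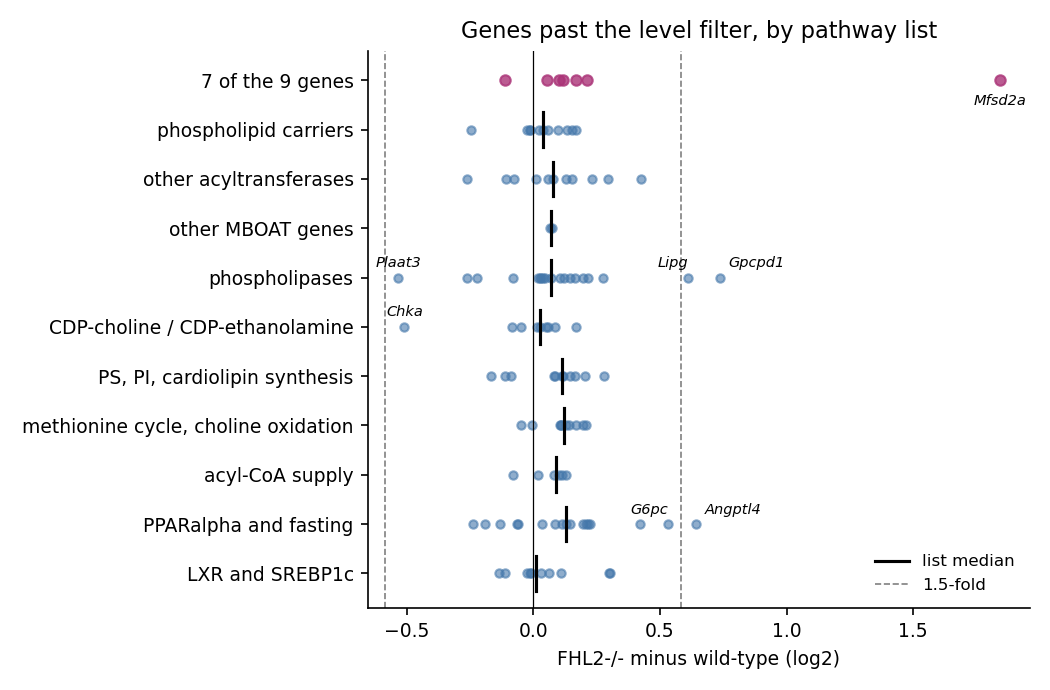
Differences in log2 level (FHL2-/- minus wild-type pool) of genes past the level filter, 1 point per gene, for 7 of the 9 genes (top row) and for 10 lists of related genes, with a black bar at each list median and dashed lines at 1.5-fold. List medians lie between 0.01 and 0.13, Mfsd2a at 1.84, and the list genes past the upper line are Gpcpd1, Lipg and Angptl4.

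Genes of fasting and PPARalpha were listed because Mfsd2a is known to respond to fasting. Over 17 genes past the filter their median was 0.13, with 12 above 0 and 5 below. Angptl4, a lipase inhibitor induced by fasting, read 7.88 and 8.52, a difference of 0.64 or 1.56-fold. The gluconeogenic gene G6pc was at 0.53. Other fasting genes lay on the opposite side, with the pyruvate dehydrogenase kinase Pdk4 at -0.24 and the fatty acid hydroxylase Cyp4a14 at -0.19. Their part in the difference of Mfsd2a was not tested.

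Markers of the cell types in liver were read beside these values. In bulk RNA fewer cells of a type and less RNA per cell cannot be told apart. The 2 brightest hepatocyte markers were Alb, at 13.74 and 13.67, and Apoa2, at 13.60 in both pools. The 10 hepatocyte markers measured differed from -0.07 to 0.16. Over all genes past the level filter 59.5% lay above 0, with a median difference of 0.04, and the counts below stand beside that share. Of 14 Kupffer cell and macrophage markers 12 were lower in the FHL2-/- pool, with a median of -0.16 and a range from -0.40 to 0.24. The log2 of their summed level was 12.09 in the wild-type and 11.94 in the FHL2-/- pool. Such a sum is weighted towards the brightest probes and is compared only between the pools. Of 12 sinusoidal endothelial markers 10 were higher, with a median of 0.12 and a range from -0.07 to 0.20, and the log2 of their summed level was 12.08 and 12.17. Stellate cell markers had a median of -0.04 over 10 genes, from -0.37 to 0.34. Among bile duct, neutrophil and fat cell markers 3, 1 and 2 genes passed the filter, with differences between -0.32 and 0.27. The part of these cell types in the values of the 9 genes was not tested. No marker in any of the 7 lists was past 1.5-fold. Without the level filter only 0.767% of all genes were as much higher and 0.667% as much lower, so nothing is read from that absence.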

How the data were processed

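Per the labels, biotin-labelled cDNA was made from 300 ng of pooled total RNA, and the deposited table holds 1 log2 level per probe set and array. Per the submitters' processing notes, Affymetrix Expression Console 1.0, RMA and Partek 6.4 were used, with no roles given, and the genome build is not given in the sources used here. No detection call was used here. Precision is limited by the number of arrays, 2.

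Gene names came from the annotation of the array platform: 21789 of 28853 had 1 symbol, and 21698 of those matched RefSeq by Entrez identifier. The probe with the highest mean represented a gene. Differences were taken on the deposited scale with Python 3.11.15, pandas 2.3.3 and statsmodels 0.14.6. The steps were tested on simulated data with changes of at least 2-fold, planted in genes well above the level filter. Recovery of 1.5-fold changes, or of changes near the filter, was not tested. With 1 array per group a gene counts as higher or lower past 1.5-fold, and no p-value is given.

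The genes and lists were chosen with earlier results of these data known. Named from each list were genes past 1.5-fold and otherwise the 2 highest and 2 lowest. Named besides were the 3 genes nearest to Mfsd2a among those that are no predicted models, and the 2 brightest markers of a list. Genes named outside this rule (Spns1, Spns2, Mfsd2b, Cabyr, Bcl6 and Lpcat2b) were chosen after their values were seen. Of the 133 list genes, 15 without a probe of their own were not analysed here. Alternatives were a common median, lowess on level with a span of 0.3, the mean over probes, 2-fold in place of 1.5-fold, and the level filter at the 60th percentile or left out.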

Additional observations from a re-analysis of the deposited data

How the results depend on the processing

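The difference of Mfsd2a ran from 1.82 to 1.88 over a common median, lowess on level and the mean over probes, and the 27 values of the 9 genes under these 3 alternatives all stayed within 1 SD between probes of the main value. Mboat1 changed sign under lowess. Each of the 9 has 1 probe, so averaging probes leaves it as it is. A common median shifts the differences of all genes by the same small amount. Only the lowess values could therefore have moved apart, and the other values staying close was fixed in advance. Of the 9 genes 1 was past 1.5-fold higher and 0 lower under every alternative, 2-fold included. Among the 50 recomputed list medians no shift reached that SD, and 2 changed sign, both under lowess. For a common median the small shift was fixed in advance, as it is the same for every list. The mean over probes left every list median as it was and could hardly do otherwise, as nearly all list genes have 1 probe. Only lowess and the changed level filters therefore tested the list medians. Of the list genes, 3 were past 1.5-fold higher under 4 alternatives and 2 with the filter at the 60th percentile, which tests fewer genes. The 2-fold alternative was not run on the lists. All 3 genes lay below it, with Gpcpd1 at 1.67-fold, Angptl4 at 1.56-fold and Lipg at 1.53-fold. Past 1.5-fold over all genes were 153 higher and 133 lower without the level filter, 41 and 14 with the filter at the 60th percentile, and 11 and 2 at 2-fold. No paired analysis was possible because each group holds 1 pooled array. With no replicate, the difference of any gene between these pools cannot be set against the spread between mice.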

Other observations

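Lpcat2b, a gene named as a relative of Lpcat2, read 4.39 in the wild-type and 4.17 in the FHL2-/- pool, a difference of -0.22 below the level filter, where Lpcat2 was at 0.21. It was chosen after its value was seen, and whether the probes of these genes share transcripts was not tested.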
